A study of Mus musculus with 4 samples.

Results

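The promoters of the ribosomal protein genes were examined in chromatin of the mouse facial surface ectoderm. The genes were taken from the GENCODE annotation of the mouse (release M21, GRCm38 assembly) by their symbols: protein-coding genes on chromosomes 1 to 19 named Rpl or Rps followed by a digit, with Rpsa, Rplp0, Rplp1 and Rplp2, and without pseudogene copies and the Rps6 kinases. This gave 82 genes, the members, of the 20722 protein-coding genes on those chromosomes. Of these, 43 encode core proteins of the large subunit and 30 core proteins of the small subunit. Another 8 are paralogs (Rpl10l, Rpl22l1, Rpl36al, Rpl39l, Rpl3l, Rpl7l1, Rps27l and Rps27rt), and 1, Rps19bp1, encodes a protein that binds Rps19 and is not part of the ribosome. Each gene was given the start site of its principal transcript, and peaks centred at most 5 kb from it were collected. These were 115 of 65467 control peaks and 2 of 3103 AP-2-dependent regions.

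ATAC-seq, in which a transposase inserts adapters into DNA that is free of nucleosomes, had been run on surface ectoderm from the facial prominences of mouse embryos at embryonic day 11.5. The 2 control libraries came from littermates with the genotype Tfap2a flox/+; Tfap2b flox/+ that lacked the Crect transgene. The 2 mutant libraries came from ectoderm double knockout (EDKO) embryos, Crect; Tfap2a flox/flox; Tfap2b flox/flox, in which Crect, a Cre transgene expressed in ectoderm, deletes the genes for the transcription factors AP-2α and AP-2β. The controls therefore carried 1 conditional allele of each gene and no Cre, so that an effect of Crect itself cannot be told apart from the loss of both factors. AP-2-dependent regions were those called as more accessible in the control libraries than in the EDKO libraries.

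Both libraries of a genotype were combined in each deposited list, so a peak has 1 value and no error between libraries, no test between genotypes could be made, and the read depth behind a peak is unknown. In the control list, all 12 marker genes of surface ectoderm had a peak over their start site, with a median summit −log10 p of 10.2. Start-site peaks were also present at 5 of 7 mesenchymal markers (median 5.62; Col3a1 and Pdgfra had none), 1 of 4 endothelial markers (Kdr), 1 of 4 blood markers (Tal1) and 4 of 4 nervous system markers (median 6.51). Of the markers without a start-site peak, Pdgfra had 8 control peaks within 5 kb, Hba-a1 had 1 and the others had none. The part of other cell types in the promoter values below was not tested.

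The ribosome consists of ribosomal RNA and a fixed set of proteins, made in balanced amounts, and growing cells spend a large share of their transcription on both. Genes for ribosomal proteins are housekeeping genes: they are read in nearly every cell type, from short promoters rich in CpG that mostly lack a TATA box. Their mRNAs typically begin with a C followed by a run of pyrimidines, the terminal oligopyrimidine motif, through which mTOR signaling controls their translation. Mutations that reduce single ribosomal proteins cause Diamond-Blackfan anaemia in humans, often with craniofacial malformations, and patterning or pigment defects in mice.

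The sequences around 5 start sites show how these promoters are built: 3 belong to genes with some of the strongest start-site peaks of the members (Rpl13a, Rps19 and Rpl37) and 2 to those with the weakest (Rpl4 and Rpl37a). Each was read from the GRCm38 reference in the direction of transcription, from 80 bases before the annotated start to 15 bases from it on, and capitals mark the unbroken run of pyrimidines that holds the first transcribed base.
Rpl13a, chr7:45128747-45128841, minus strand: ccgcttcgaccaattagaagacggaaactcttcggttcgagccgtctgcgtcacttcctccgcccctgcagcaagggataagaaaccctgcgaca
Rps19, chr7:24884291-24884385, plus strand: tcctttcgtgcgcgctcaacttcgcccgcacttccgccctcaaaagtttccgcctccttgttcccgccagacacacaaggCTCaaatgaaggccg
Rpl37, chr15:5116565-5116659, plus strand: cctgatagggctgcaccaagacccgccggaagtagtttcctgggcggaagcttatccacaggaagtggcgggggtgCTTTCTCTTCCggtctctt
Rpl4, chr9:64173295-64173389, plus strand: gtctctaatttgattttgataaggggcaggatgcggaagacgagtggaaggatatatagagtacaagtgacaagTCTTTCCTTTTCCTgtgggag
Rpl37a, chr1:72711210-72711304, plus strand: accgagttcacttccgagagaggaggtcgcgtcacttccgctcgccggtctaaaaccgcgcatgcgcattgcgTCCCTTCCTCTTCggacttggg

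Pyrimidine runs of 11 to 14 bases lay across the annotated start of Rpl37, Rpl4 and Rpl37a. The run at Rps19 was 3 bases long, and Rpl13a had none, because its annotated first base is A. The strong and the weak promoters shown therefore both included genes with a long run. In the listed stretches, the SP/KLF string GGGCGG (read on either strand) occurred at each of the 3 strong promoters and at neither of the 2 weak ones. This split did not hold beyond the stretches shown: within the longer promoters described further on, Rpl19, Rpl35a and Rpl38, which are among the 8 weakest, each held the string.

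Open chromatin lay at nearly all of these genes. A control peak was centred at most 5 kb from the start of 80 of 82 genes (97.6%, 95% Wilson interval 91.5 to 99.3%, which like every interval here covers counting error only), against a background of 72.0% of all protein-coding genes of chromosomes 1 to 19. A control peak covered the start site itself in 78 of 82 (95.1%, 88.1 to 98.1%), against a background of 62.7%. All 43 core genes of the large subunit and all 30 of the small subunit were among them.

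The 4 genes without a start-site peak were all paralogs. Rpl10l (chromosome 12) and Rpl39l (chromosome 16), which replace an X-linked ribosomal protein in male germ cells, had no control peak within 5 kb. Rpl3l, the form of Rpl3 found in striated muscle, had 1 peak within 5 kb, centred 3.87 kb upstream, with a summit −log10 p of 9.05. That peak covered the start site of Ndufb10, not of Rpl3l. Rps27rt, an intronless copy of Rps27, also had 1 peak, centred 4.20 kb downstream with a summit −log10 p of 7.23, at the start site of Osbpl10.

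The other 4 paralogs had start-site peaks as strong as those of the core genes. The summit −log10 p was 10.2 at Rpl7l1, 10.5 at Rps27l, 11.6 at Rpl22l1 and 12.6 at Rpl36al. Rps27l, which is known as a target of p53, stood above its parent Rps27 at 9.36, whereas Rpl22l1 stood just below Rpl22 at 11.9. Rpl3 itself had a peak of 11.4. Rps19bp1 had a peak of 10.3.

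**Figure D1:**
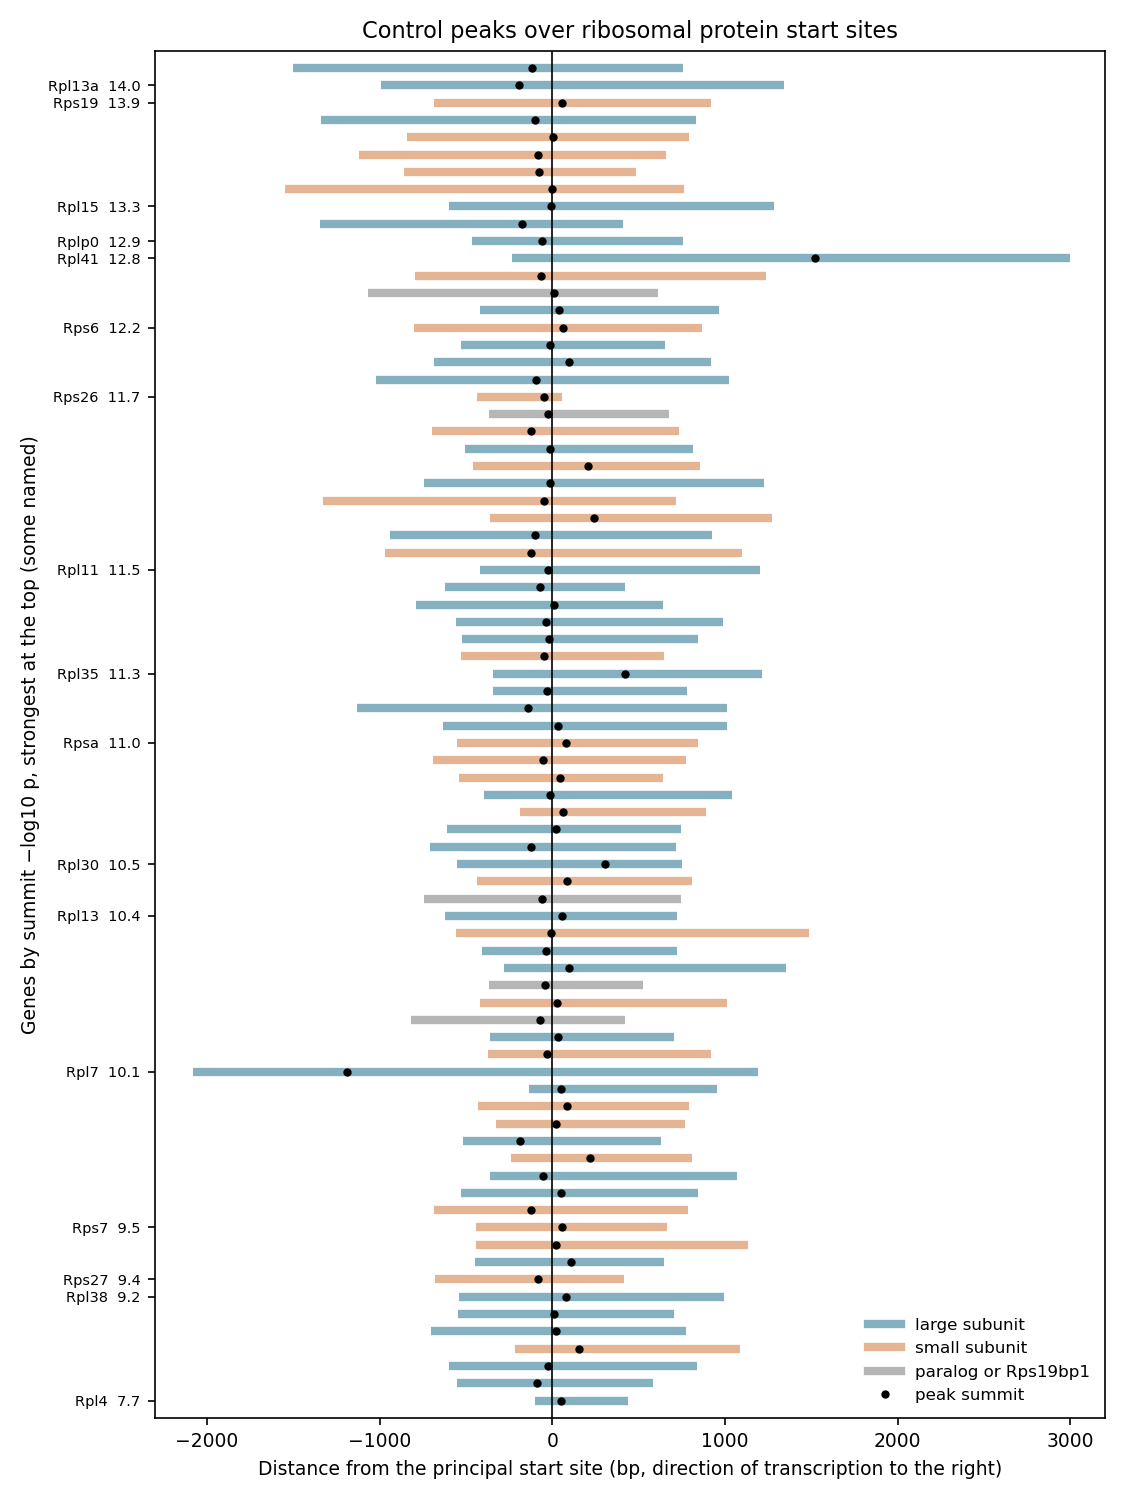
Each bar gives the extent of the control peak over the start site of 1 of 78 ribosomal protein genes, in bp from the start, with its summit as a dot, and some genes are named with their summit −log10 p. The genes are ordered by that value, with Rpl4 (7.74) at the bottom, and all but 4 summits lie within 250 bp of the start.

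The summit −log10 p, the strength of a peak at its highest point in the combined control libraries, had a median of 11.1 over the 78 start-site peaks (quartiles 10.1 and 11.7), and the 95% interval of that median, from order statistics over genes, was 10.5 to 11.5. Over all 12988 protein-coding genes with a start-site peak the median was 9.79 (quartiles 7.67 and 11.6) and the range 2.97 to 37.5. The upper quartiles of both were thus nearly equal, while the lower quartile of the ribosomal protein genes stood above that of all genes. When all start-site peaks were divided into 10 equal groups by strength, no ribosomal protein gene fell into the weakest 2 groups, and 10 of 78 (12.8%) fell into the strongest. The values of the ribosomal protein genes were packed between the middle and the upper end of the whole distribution.

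Genes of the large and the small subunit had similar values. The median was 11.2 over 43 core genes of the large subunit (range 7.74 to 14.4) and 10.9 over 30 core genes of the small subunit (8.98 to 13.9), and the intervals of both medians, 10.4 to 11.5 and 10.2 to 11.6, overlapped over most of their length. The differences between genes of 1 subunit were larger than that between the subunits.

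Among the strongest start-site peaks was that of Rpl13a (14.0), which also acts outside the ribosome as a repressor of translation in inflammation, at percentile 96.2 of all start-site peaks. Rps19, the gene most often mutated in Diamond-Blackfan anaemia, stood at 13.9. Rpl37, Rps29, Rps21, Rpl15 and Rpl18 were also among the 10 highest members, between 13.9 and 13.2. Genes of both subunits were thus found at the upper end.

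The weakest was that of Rpl4 (7.74), which lines part of the exit tunnel for the new protein chain, at percentile 25.7. Rpl37a (8.87), Rpl32 (8.96), Rpl19 (9.15), Rpl35a (9.18), Rpl38 (9.19) and Rps27 (9.36) were among the 8 lowest as well, all of them between percentiles 38.2 and 44.3. Rpl4 was thus the single member clearly below the rest. Its open region was divided in the deposited list: the peak over the start was 539 bp wide, and a separate peak of 774 bp with a summit −log10 p of 8.36 lay just upstream, over the divergent start of Zwilch.

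The stalk proteins, which recruit translation factors to the large subunit, had summit −log10 p values of 12.9 (Rplp0), 11.4 (Rplp1) and 10.4 (Rplp2). Rpsa, the laminin receptor precursor and a small subunit protein whose loss of 1 copy causes absence of the spleen in humans, had 11.0. Rps27a, which is made as a fusion with ubiquitin, had 11.6, in a peak that also covered the start of Clhc1. Values of the stalk genes spanned the middle and upper part of the range.

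Among the 18 genes of Diamond-Blackfan anaemia on the list, all had a start-site peak, with a median of 11.4 and a range of 9.18 (Rpl35a) to 13.9 (Rps19). Rpl5 (10.1) and Rpl11 (11.5), which carry a small ribosomal RNA and bind Mdm2 when ribosome assembly is disturbed, lay on either side of the median of all members. Rps26 (11.7), which contacts the mRNA as it leaves the ribosome, had the narrowest peak of all members. Rps14 (10.2), lost in a myelodysplastic syndrome, lay below the median of all members, near their lower quartile of 10.1.

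The 6 genes with known patterning or pigment mutants in the mouse had a median of 9.78. Rpl38, mutated in the Tail short mouse with axial skeletal defects, had 9.19, and Rpl24, mutated in Belly spot and tail, had 9.36. Rps7 had 9.50 and Rps20, a dark skin gene, had 10.1. Rps6, the target of the S6 kinases, had 12.2, and Rps19, also a dark skin gene, had 13.9. With 6 genes this group reached from percentile 42.2 to 96.0 of all start-site peaks, so that it covered most of the range of the whole set.

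Other genes of the translation machinery were set beside these with the same measure. The 7 ribosomal proteins that the naming rule or the chromosome limit left out all had start-site peaks, with a median of 10.3. These included Fau (12.03) and Rack1 (10.5) on autosomes and Rpl10 (10.3), Rpl36a (10.1), Rpl39 (8.42) and Rps4x (6.63) on the X chromosome. The 4 X-linked genes thus held the 4 lowest values of these 7. The embryos' sex and hence the number of X chromosomes was not analysed here.

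All 78 genes of the mitochondrial ribosome had start-site peaks, with a median of 9.49 and a range from 5.00 to 14.7. This range was wider than that of the cytoplasmic ribosome at its lower end. Genes with initiation factor symbols had start-site peaks in 53 of 55 cases with a median of 10.6 (Eif4e1b and Eif4ebp3 had none), and elongation factors in 8 of 9 with a median of 11.3. Eif5a and Eif5a2 were counted in both of these lists. The elongation factor without a peak was Eef1a2, the form of neurons and muscle. Genes of ribosome biogenesis had start-site peaks in 23 of 23, with a median of 9.85.

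**Figure D2:**
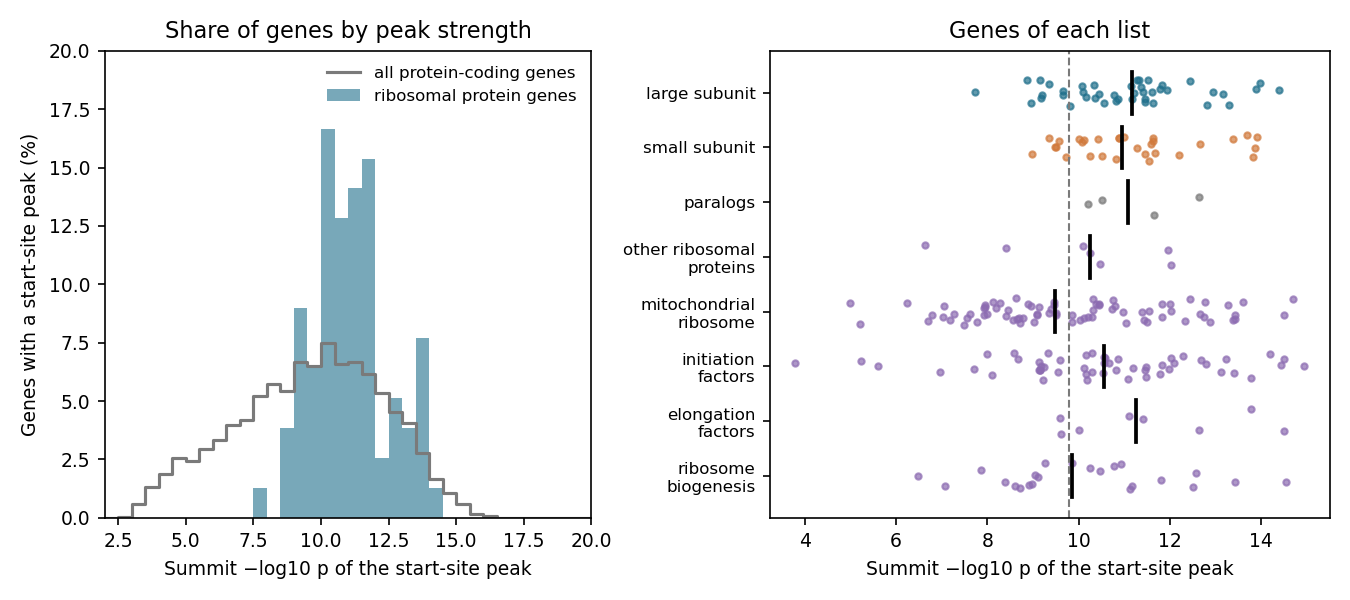
Left, the percentage of genes by summit −log10 p of the start-site peak, for 78 ribosomal protein genes (bars) and 12988 protein-coding genes (line), on an axis that ends at 20, below the highest peaks of other genes. Right, each point is 1 gene of a list, with vertical ticks at the list medians and a dashed line at 9.79, the median of all genes: the medians of the large subunit (11.2) and small subunit (10.9) lie to the right of that line and the median of the mitochondrial ribosome (9.49) to its left.

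The width of the start-site peaks was close to that of other genes. It had a median of 1432.5 bp over the ribosomal protein genes (quartiles 1194 and 1641) and of 1425 bp over all genes with a start-site peak. The peaks reached a median of 551.5 bp before the start and 801.5 bp after it, against 548 and 808.5 bp over all genes. The open interval was thus asymmetric, reaching further into the gene, in both sets.

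The widest peaks were those of Rpl7 (3271 bp), Rpl41 (3232 bp) and Rpl13a (2332 bp). At Rpl41, which encodes the smallest ribosomal protein, the interval also covered the start of Zc3h10, and its summit lay 1519 bp after the Rpl41 start. At Rpl7 the interval covered the start of Rdh10, which encodes a retinol dehydrogenase, and the summit lay 1187 bp before the Rpl7 start. The strength given for these genes is therefore that of an interval shared with another promoter.

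The narrowest were those of Rps26 (494 bp), Rpl4 (539 bp) and Rps19bp1 (895 bp). At Rps26 a second peak of 672 bp with a summit −log10 p of 8.42 had its centre 504 bp after the start, so the open promoter was again split between neighbouring intervals.

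The summits sat close to the start sites. Their offset had a median of −11 bp (quartiles −63.8 and 49.5), and their distance a median of 56.5 bp against 84 bp over all genes. A summit within 250 bp was found at 74 of 78 genes (94.9%), against 78.9% of all genes with a start-site peak. Beside Rpl41 and Rpl7, the exceptions were Rpl35 (422 bp after the start) and Rpl30 (307 bp after it). The summit preceded the start at 42 of 78 genes, so it fell on either side in nearly equal numbers.

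Of the 82 genes, 52 had a single control peak within 5 kb (63.4%, against 47.9% of all protein-coding genes), 19 had 2 (23.2% against 17.7%), 8 had 3 (9.76% against 4.84%), and Rpl13 had 4 (1.22% against 1.16%). These shares also count genes without such a peak, which were 2 of 82 members and 5799 of all 20722 genes. Among genes with any peak, a single one was found at 52 of 80 members and at 9934 of 14923 genes. The 37 peaks that covered no member's start were weaker, with a median summit −log10 p of 5.64, and 15 of them lay nearest to the start of another gene. An example is Rpl36, whose upstream neighbour at 3.68 kb, a peak of 12.2, covered the start of 2410015M20Rik. At Rpl10a, Rpl8, Rpl28, Rpl19 and Rps19bp1, each with 3 peaks, the further peaks reached at most 8.95.

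AP-2-dependent regions were rare near these genes, as they were near protein-coding genes in general. No start-site peak of a ribosomal protein gene overlapped such a region (0 of 78, upper limit of the Wilson interval 4.69%), against a background of 1.22% of the start-site peaks of all protein-coding genes (159 of 12988). A region was centred at most 5 kb from the start of 2 of 82 genes, Rpl13 and Rps27 (2.44%, 0.671 to 8.46%), against a background of 1.61% (333 of 20722). With 82 genes, a share near the background in either direction could not be told apart from it. Among the 12 surface ectoderm markers, 2 (Krt5 and Krt14) had a start-site peak that overlapped a region. The markers were chosen with earlier results of these data known, so their count is not a background.

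Over all protein-coding genes, start-site peaks that overlapped a region were more frequent among stronger peaks. Their share was 0.0770% in the weakest of the 10 groups, 1.00% in group 8, 2.46% in group 9 and 4.93% in the strongest. The strongest 3 groups together held 3896 genes, of which 109 had a region in their start-site peak (2.80%). They also held 36 of the 78 ribosomal protein genes (46.2%), and none of these 36 had one. Of these 36, 20 were in group 8, 6 in group 9 and 10 in the strongest group. The 2.80% is therefore not matched to them in strength, and with 36 genes a count of 0 could not be told apart from the background.

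**Figure D3:**
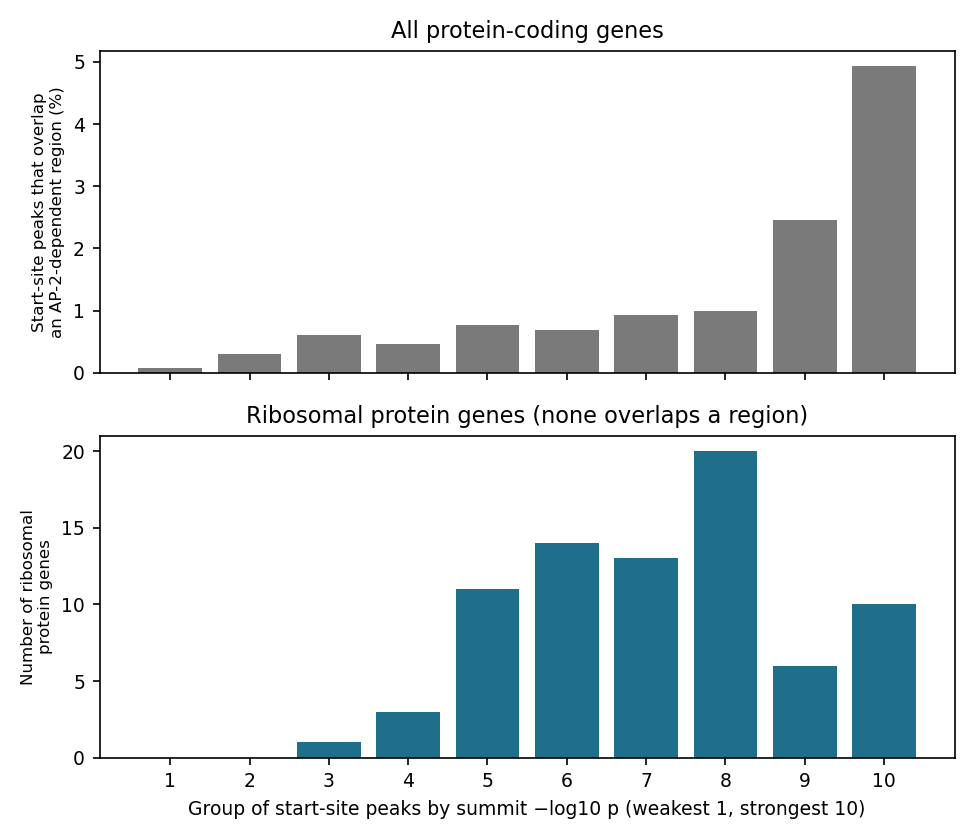
Above, the percentage of start-site peaks that overlap an AP-2-dependent region in 10 equal groups of all 12988 start-site peaks ordered by summit −log10 p, from 0.0770% in the weakest to 4.93% in the strongest. Below, the number of ribosomal protein genes in each group, with 20 in group 8 and 10 in the strongest, none of which overlaps a region.

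At Rpl13, whose protein belongs to the large subunit and is mutated in a human skeletal dysplasia, the region lay at chr8:123100254-123100634, centred 1906 bp upstream of the start. Its summit −log10 p in the comparison of control and EDKO libraries was 6.07, above 82.0% of all AP-2-dependent regions, and its area under the curve was 566. It overlapped no exon and lay outside Rpl13, within an intron of Gm20388, a long read-through gene model. The control peak that held it (chr8:123100207-123101176) had a summit −log10 p of 10.4, as high as that of the separate peak over the Rpl13 start (10.4). The start-site peak itself did not overlap the region.

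At Rps27, a small subunit protein with a zinc finger, the region lay at chr3:90208527-90208822, centred 4976 bp downstream of the start and so only just within the limit of 5 kb. Its summit −log10 p was 4.56, above 55.8% of all regions, and its area under the curve 351. It lay past the end of Rps27, in an intron of Nup210l, a gene for a nucleoporin-like protein that is transcribed towards Rps27. The control peak around it (chr3:90208512-90209274) had a summit −log10 p of 8.83, and the peak over the Rps27 start 9.36. Control peaks close to the limit included this one at 4758 bp on the inner side, and those at 5022 bp from Rpl32 and 5134 bp from Rpl18 on the outer side.

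The sequences of both regions are given because they were the AP-2-dependent sites closest to ribosomal protein genes. Each contained 1 match to the AP-2 string GCCNNNGGC, shown in capitals, and both matches read the same. Among the next closest regions, those at Rps21 and Rpl3 held no match and that at Rps19 held 1. The share of all AP-2-dependent regions with the string is not given here. They are given on the plus strand of GRCm38, the first from 300 and the second from 266 bases at the end of the region.
Rpl13 region, chr8:123100335-123100634: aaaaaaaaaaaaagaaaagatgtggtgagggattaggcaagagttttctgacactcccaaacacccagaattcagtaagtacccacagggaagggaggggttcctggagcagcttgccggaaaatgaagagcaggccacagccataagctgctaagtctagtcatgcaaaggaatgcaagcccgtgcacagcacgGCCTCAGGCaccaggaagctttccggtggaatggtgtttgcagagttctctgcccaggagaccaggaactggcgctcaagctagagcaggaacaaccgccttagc
Rps27 region, chr3:90208557-90208822: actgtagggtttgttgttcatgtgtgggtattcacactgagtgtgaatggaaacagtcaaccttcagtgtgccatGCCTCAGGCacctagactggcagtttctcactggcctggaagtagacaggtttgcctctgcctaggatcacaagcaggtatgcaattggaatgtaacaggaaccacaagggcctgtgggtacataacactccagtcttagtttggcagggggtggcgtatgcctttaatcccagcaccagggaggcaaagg

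**Figure D4:**
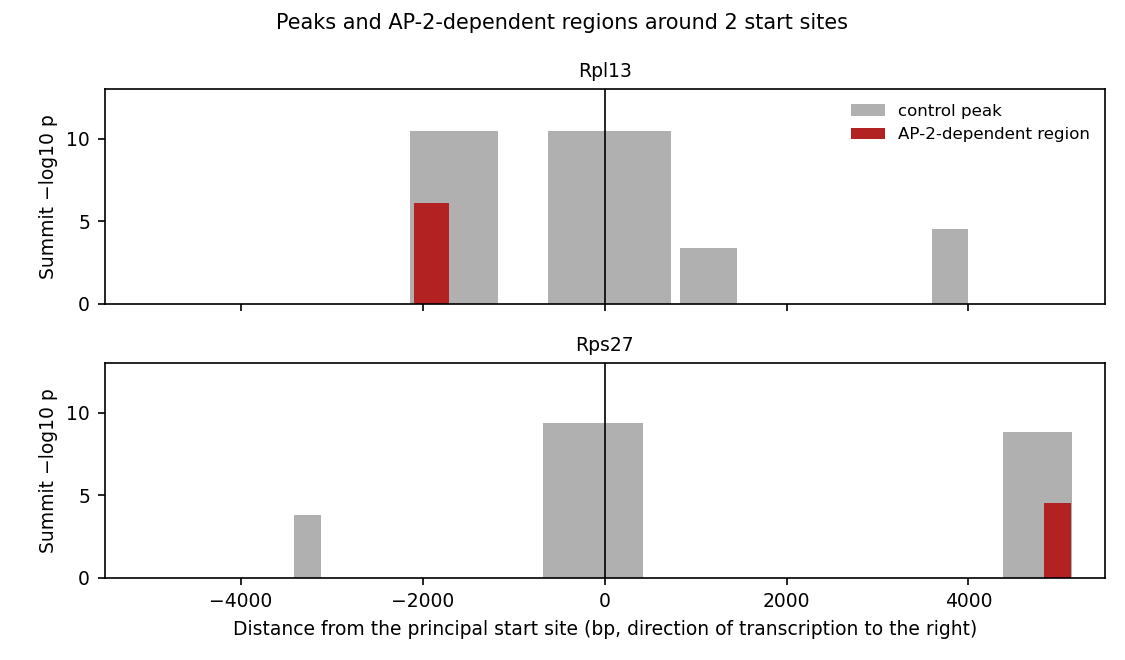
Control peaks (grey) and AP-2-dependent regions (red) around the starts of Rpl13 and Rps27, drawn to scale in bp from the start, with the summit −log10 p as height. Heights of peaks and regions come from separate calls with different backgrounds and are not comparable with each other; the region lies 1906 bp before the start of Rpl13 and 4976 bp after that of Rps27.

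Counted over peaks instead of genes, 2 of the 115 control peaks near ribosomal protein genes overlapped a region (1.74%, 0.478 to 6.12%), against 294 of the 19099 control peaks near any protein-coding gene of these chromosomes (1.54%). The nearest region was a median of 272 kb away from a ribosomal protein start, against 314 kb over all genes. After Rpl13 and Rps27, the closest were at Rps21 (20.7 kb), Rpl3 (21.3 kb) and Rps19 (23.3 kb).

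Short strings bound by transcription factors were counted in the promoters, from 250 bases before to 50 after the start and on both strands. A match describes the letters and not a bound site. Among members with a start-site peak, the AP-2 string GCCNNNGGC was present in 8 of 78 promoters (10.3%, 5.29 to 18.95%), against 25.9% of all promoters with a start-site peak. The 8 were those of Rpl12, Rpl18, Rpl19, Rpl31, Rpl36al, Rps23, Rps3a1 and Rpsa. Within 100 bp of the summit it was present in 10 of 78 peaks (12.8%) against 22.5%.

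The SP/KLF string GGGCGG was found in 51.3% of the promoters of members with a start-site peak against 67.6% of all promoters with such a peak. Within 100 bp of the summit the shares were closer, 46 of 78 peaks (59.0%, 47.9 to 69.2%) against 63.9%, a value inside the interval. CCAAT was found in 30.8% of these promoters against 37.6%, also inside the interval of 21.6 to 41.7%. The AP-2 and SP/KLF strings consist of G and C at every fixed position. The GC content of the members' promoters was lower, with a median of 56.2% against 61.7%, while the ratio of observed to expected CpG was 0.855 against 0.769. The lower shares of these 2 strings in the promoters thus came with a lower GC content, whose part in them was not tested.

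The ETS string CCGGAAG was present in 32.1% of the members' promoters against 16.9% of all promoters with a start-site peak. The strings of YY1, a factor with sites near many housekeeping starts, were present in 17.9% against 7.54% (ATGGCGG) and in 6.41% against 2.86% (AAGATGGCG). For the longer string the 2.86% lay inside the members' interval of 2.77 to 14.1%. These YY1 strings share most of their letters and are not independent of each other. The 5 members with the longer string were Rpl18, Rpl23a, Rpl35a, Rpl7l1 and Rps27. The promoters of the mitochondrial ribosome had similar shares, with 37.2% for the ETS string, 20.5% for ATGGCGG and 10.3% for AAGATGGCG.

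The NRF1 string GCGCATGCG occurred in 2 members, Rpl10a and Rpl37a, and can be read in the Rpl37a stretch given above. This share of 2.44% was close to the 2.23% of all protein-coding genes. The Ronin string ACTACAATT occurred in 2 members as well, Rpl23a and Rps27a, against 0.594% of all protein-coding genes, with an interval of 0.671 to 8.46% for the members. Unlike the backgrounds of the strings above, both of these include genes without a start-site peak. Within 100 bp of the summit of start-site peaks, each string was present in 2 of 78 members (2.56%, 0.706 to 8.88%). There the background was 2.84% for NRF1 and 0.585% for Ronin. Each share of the members rests on 2 genes. TATAAA between bases −40 and −15 was present in 0 of 82 members, against 2.54% of all protein-coding genes and 0.924% of those with a start-site peak. Variants of the TATA box with other letters were not searched.

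**Figure D5:**
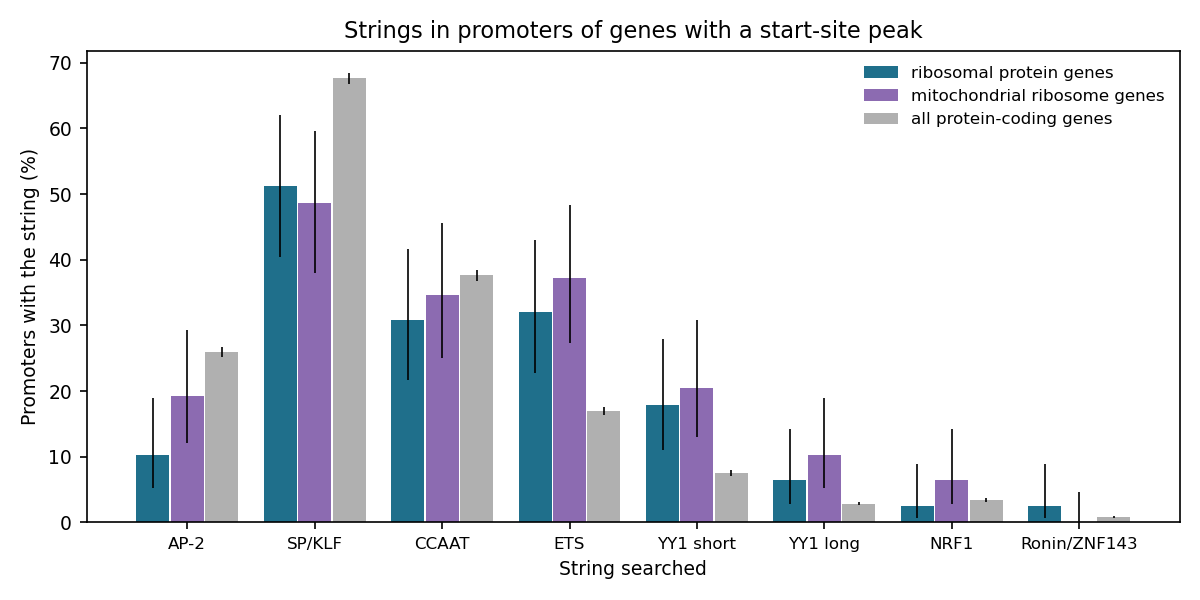
Percentage of promoters with a start-site peak that hold each string, for 78 ribosomal protein genes, 78 mitochondrial ribosome genes and 12988 protein-coding genes, with 95% Wilson intervals as error bars. The ETS and YY1 strings stand higher in both ribosomal sets than in all genes, and the AP-2 and SP/KLF strings stand lower in the cytoplasmic ribosomal proteins (10.3% and 51.3%) than in all genes (25.9% and 67.6%).

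The terminal oligopyrimidine motif was looked for at the annotated starts. C was the first base of 27 of 82 members (32.9%, 23.7 to 43.7%) against 17.7% of all protein-coding genes, and G was the most frequent in both (39.0% and 39.8%). A C followed by at least 4 more pyrimidines, exactly at the start, was found in 9 members (11.0%) against 2.28% of all genes. They included Rpl32, Rpl36, Rpl37, Rpl37a, Rpl4, Rps21, Rps24 and the intronless Rps27rt. With the same motif allowed to begin up to 5 bp from the start, the counts were 24 of 82 (29.3%) against 18.4%. The annotated starts were not compared with mapped mRNA ends, so these shares need not be those of the mRNAs. The background here and for the runs below is all protein-coding genes, also those without a start-site peak.

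The longest unbroken run of pyrimidines within 25 bp of the start had a median of 7 bases over the members against 5 over all genes. A run of at least 8 bases was present in 35 of 82 (42.7%, 32.5 to 53.5%) against 19.3%. It was present in 24 of 43 core genes of the large subunit (55.8%) and in 9 of 30 of the small subunit (30.0%), with intervals of 41.1 to 69.6% and 16.7 to 47.9% that overlapped. The longest run was 19 bases at Rps24, followed by 17 at Rpl32 and 15 at Rpl22. In the mitochondrial ribosome, whose mRNAs are not known for this motif, such a run was present in 16.7%.

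Ribosomal protein genes have many processed pseudogenes, which carry copies of their exons, and the authors' alignment allowed each read up to 10 places. The median share of 31-base words of a start-site peak that occurred more than once in the assembly was 7.59% over the members and 0% over all genes with a start-site peak. Before the start this share had a median of 0% over the members, and after the start 10.3%. The share was highest at Rps2, with 38.95% of the whole peak and 50.9% of the part after the start. In each of the 78 peaks the median word occurred fewer than 2 times. The start-site peaks of Rpl4 and Rps26, for example, held no repeated word.

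The position of the genes relative to their neighbours was also examined. A protein-coding gene began within 1 kb in the opposite direction at 9 of 82 members (11.0%, 5.88 to 19.6%), against 7.14% of all genes, a value inside the members' interval. These pairs were Vps52 with Rps18, Nkiras1 with Rpl15, Zwilch with Rpl4, Lrsam1 with Rpl12, Lias with Rpl9, Mgat2 with Rpl36al, Iqcg with Rpl35a, Med22 with Rpl7a and Ndufa7 with Rps28. At Rps28 the starts were 10 bp apart, and at Rpl9 53 bp. At Rpl4 and Rpl12 the peak over the member's start did not reach the start of the neighbour. In the other pairs it covered both starts and cannot be assigned to either gene.

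Small nucleolar RNA genes, whose products guide the modification of ribosomal RNA, lay inside 28 of 82 members (34.1%, 24.8 to 44.9%), against 1.16% of all protein-coding genes. The 28 hosts held 56 such genes, with 5 in Rpl4 and 4 in Rpl13a. Hosts were found at both ends of the order of strength, since Rpl4 had the weakest and Rpl13a one of the strongest start-site peaks.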

How the data were processed

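ATAC-seq libraries of surface ectoderm (2 control, 2 EDKO) were used as processed by the authors, who trimmed adapters with NGmerge, aligned reads to mm10 with bowtie2 (--very-sensitive, up to 10 alignments per read) and ran the peak caller Genrich 0.5 in its mode for ATAC-seq, without PCR duplicates and mitochondrial reads. Both libraries of a genotype entered each call: the control libraries alone, and the control libraries against the EDKO libraries as background. The authors deposited for each peak a score, namely the area of the peak per base of its width times 1000, with 1000 as its ceiling, and the area itself (above the calling threshold), also a score. The deposited −log10 p at the summit is Genrich's, not adjusted for the number of positions. Offsets of summits are the other value the authors deposited. Values were compared within a list only.

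Genes, start sites (principal transcript by APPRIS) and sequences came from GENCODE M21 and the GRCm38 reference, the assembly that mm10 names. A start-site peak is the control peak that covers the start. An overlap was counted from 1 bp. The members and gene lists were chosen with earlier results of these data known. Genes named are those without a peak, those with an AP-2-dependent region, the 10 strongest, the 8 weakest, the 3 widest and the 3 narrowest, those with at least 3 peaks, and genes fixed for their roles; members listed for a string, a first base, a position or a distance were named by that property. Shares carry 95% Wilson intervals, medians order-statistic intervals. Genes are not replicates and the lists hold no value per library, so no test was made. The count of repeated words used 31-base words of the assembly. The programs (Python 3.11.15, pandas 2.3.3) were tested on simulated data. Coverage tracks and expression were not analysed here. Results of 5 genes are not reported here by name; they remain in the counts and medians.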

Additional observations from a re-analysis of the deposited data

How the results depend on the processing

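For 7 results, 39 alternative values were computed, of which 32 stayed within the 95% interval of the value reported. Some of these 32 could not differ. No start-site peak of a member had a median word that occurred at least 2 times, and all had areas above 500. With core ribosomal proteins only, the share of genes with a control peak was 100% both within 5 kb and over the start, since the genes without one were paralogs. Within 1 kb of the start, the share of genes with an AP-2-dependent region and the share of control peaks that overlap one were both 0%, as both regions lie further away. With an overlap of at least 50% of both intervals, the share of control peaks that overlap a region was also 0%. The share of pyrimidine starts was 29.3% when the motif could begin within 5 bp and 42.7% for a run of at least 8 pyrimidines within 25 bp, a definition added after seeing the data. With peaks of an area of at least 500 only, the region at Rps27 was lost and 1.22% of genes had a region.

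No paired analysis was possible because the libraries of a genotype were combined in each deposited list, and no library was left out for the same reason. The read depth behind each peak is unknown. The sample of 82 genes limits what a count of 0 or 2 can show, and shared promoters, split peaks and repeated exon words limit the values of the genes named for them.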
